A study of Arabidopsis thaliana with 24 samples.

Results

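The subjective morning and the early subjective night of the *rve8-1* mutant of Arabidopsis were compared on 8 arrays, 4 for each side, of the 24 arrays in the series. The morning arrays were those harvested at 72, 76, 96 and 100 h in constant light, which are circadian times 0 and 4 on days 4 and 5, and the night arrays were those harvested at 84, 88, 108 and 112 h, which are circadian times 12 and 16. A gene was kept when its log2 level exceeded 4.5 on at least 4 of the 12 *rve8-1* arrays, and 19018 of the 30237 genes in the table were kept. The remaining arrays were the 4 *rve8-1* arrays of circadian times 8 and 20 and 12 arrays of Col, the Columbia wild type without the insertion, which served for reference. *rve8-1* is a line with a T-DNA insertion in *RVE8* (At3g09600). Both genotypes were whole seedlings, about 50 plants pooled per sample, raised on sugar-containing agar in cycles of 12 h light and 12 h dark for 7 days and then moved to constant white light at constant temperature. RNA was hybridized to AGRONOMICS1 tiling arrays, and each value is a log2 expression level as summarized by the authors. No separate culture is stated for each harvest, and day 5 stood in as the replicate of day 4, so p-values measure the spread between these samples only, including any change from one day of free run to the next.

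The plant clock is a network of transcription factors that repress or activate one another at successive times of day. The MYB-like proteins CCA1 and LHY accumulate around dawn and hold down evening genes, the pseudo-response regulators follow in sequence through the day and repress *CCA1* and *LHY*, and an evening complex of ELF3, ELF4 and LUX acts after dusk. RVE8 is a MYB-like relative of CCA1 and LHY that activates evening genes, and plants that lack it have a long period. The clock in turn times photosynthesis, pigment synthesis, starch turnover and responses to cold, and in constant light any remaining difference between morning and night comes without a light signal to mark the hour.

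*RVE8* itself was checked first. On the morning arrays of *rve8-1*, in the order 72, 76, 96 and 100 h, its log2 level was 4.36, 4.70, 4.56 and 4.57, and on the night arrays, in the order 84, 88, 108 and 112 h, it was 3.33, 3.17, 3.68 and 3.21. The 4 morning arrays were all above the 4 night arrays, but too few arrays exceeded 4.5 for the gene to be kept, so it was not tested. In Col the same hours gave 7.37, 6.28, 7.36 and 5.94 in the morning and 4.45, 6.41, 5.36 and 6.71 at night. The 2 orders of hours given here are used for all array values that follow.

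The 25th percentile of all levels lay between 3.76 and 4.1 on the morning arrays and between 3.79 and 3.96 on the night arrays, and 57.7% to 63.2% and 58.3% to 60.4% of all genes exceeded 4.5. The median SD between the 2 arrays of one time of day was 0.19 (25th to 75th percentile, 0.14 to 0.27), and the median difference over all kept genes was 0.015, in favour of the morning. The tissue label was checked with marker genes. All 5 leaf markers that could be read exceeded 4.5 on every *rve8-1* array, as did 6 of 10 root markers, and the other 4 did so on at most 3 arrays. Of 10 flower and seed markers, *AG*, *AP3*, *SEP1* and *SESA1* never exceeded 4.5, *AP1*, *PI* and *CRU3* did on 2 arrays each and *OLEO1* on 7, while *CRA1* and *OLEO2*, which encode seed proteins, did on all 12. In all 3 lists 0 markers passed the test below between morning and night. The log2 of the summed levels was 13.99 to 14.29 in the morning and 14.09 to 14.24 at night for leaf, 9.25 to 9.60 and 8.90 to 9.60 for root, and 7.69 to 8.14 and 7.68 to 8.42 for flower and seed. In whole seedlings a smaller share of one cell type and less RNA per cell cannot be told apart.

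To learn which genes differ between morning and early night in the mutant, a model with 1 mean for each time of day was fitted to the 12 *rve8-1* arrays with limma, and the mean of circadian times 12 and 16 was subtracted from that of 0 and 4. At a Benjamini-Hochberg adjusted p under 0.05, 1549 genes (8.14% of those tested) were called. Of these, 812 (4.27%) were higher in the morning, with a median difference of 0.72 log2 units, and 737 (3.88%) were higher in early night, with a median difference of -0.61. Differences of at least 1 log2 unit, a doubling, were found in 201 of the morning genes and 131 of the night genes, and differences of at least 2 units in 34 and 20. The 4 arrays of one side lay entirely above the 4 of the other for 720 of the morning genes (88.7%) and 636 of the night genes (86.3%). Over all kept genes this separation was met by 3328 (17.5%), 1732 with the morning higher (9.11%) and 1596 with the night higher (8.39%). The difference had the same sign on day 4 alone and on day 5 alone in all 812 and all 737 genes. The same arrays chose these genes, which nearly ensures equal signs, so nothing is read from this. For 48 morning genes and 30 night genes every array of the lower side was at or under 4.5, so these could have been kept through one side alone. The count of calls was 647, 763, 888, 891 and 1020 without the 84, 76, 108, 96 and 88 h array, each leaving 1 time of day with a lone array that was assumed to vary like the others. The called genes were spread over the 5 nuclear chromosomes, at 7.5% to 8.66% of the genes tested on each, while 0 of the 63 chloroplast and 0 of the 16 mitochondrial genes kept were called.

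Among the MYB-like clock genes, *CCA1*, *LHY* and *RVE1* were higher in the morning. *CCA1*, the dawn repressor, had levels of 7.20, 7.62, 7.07 and 7.76 in the morning and 5.03, 4.25, 5.68 and 4.61 at night. The lowest morning array was well above the highest night array, that of 108 h, and the difference was 2.52 ± 0.17 (SE), or 5.73-fold (adjusted p = 4.05e-05, limma). *LHY*, its closest relative, had 8.0, 8.11, 7.73 and 8.32 in the morning and 4.94, 4.86, 5.76 and 4.83 at night. Here too the 108 h array was the highest of the night, yet it stayed about 2 units below the lowest morning array, and the difference was 2.94 ± 0.23 (adjusted p = 7.53e-05). *RVE1*, which links the clock to auxin, differed by 1.91 ± 0.15 (adjusted p = 7.44e-05). *RVE7* had the opposite sign, at -0.51 ± 0.13 (adjusted p = 0.0428), but its levels of 5.97, 6.79, 5.85 and 6.98 in the morning overlapped those of 7.34, 6.45, 7.45 and 6.39 at night, and its call was lost with any 1 of the 8 arrays left out. *RVE2* (-0.29, adjusted p = 0.282) and *RVE4* (0.45, adjusted p = 0.0626) were not called. Of 9 genes of this kind looked for, 6 were matched by name to a row in the table. All 6 were kept, and their median difference was 1.18 against 0.015 over all kept genes. *RVE3*, *RVE5* and *RVE6* were not matched by name, so a row of theirs under another name would be left out of this list.

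**Figure D1:**
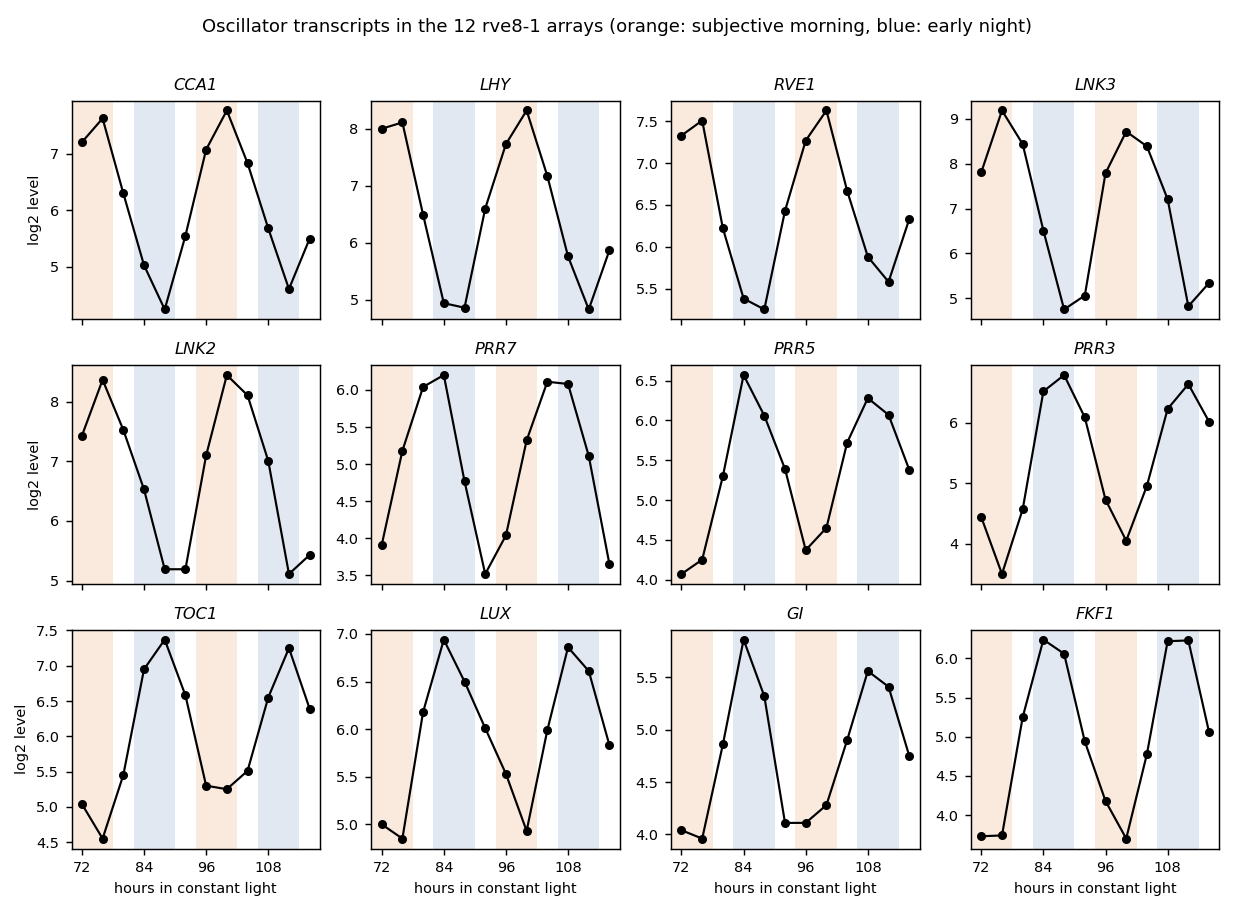
Log2 levels of 12 oscillator genes (y axes, each with its own range) on the 12 *rve8-1* arrays against hours in constant light, 1 array per point, with the morning harvests shaded orange and the early night harvests blue. *CCA1*, *LHY*, *RVE1*, *LNK3* and *LNK2* stand high in the orange bands, and *PRR5*, *PRR3*, *TOC1*, *LUX*, *GI* and *FKF1* in the blue ones. *PRR7* climbs and falls within the bands.

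The *LNK* genes, whose products are coactivators that work with RVE8 and its relatives, were all 4 higher in the morning. Over all kept genes 4.27% were, and the median difference of the 4 was 1.93. *LNK3* had levels of 7.81, 9.19, 7.79 and 8.72 in the morning and 6.51, 4.75, 7.21 and 4.82 at night. Both circadian time 4 arrays were above both circadian time 0 arrays, both circadian time 16 arrays were far below both circadian time 12 arrays, and the sides did not overlap (difference, 2.56 ± 0.16, adjusted p = 3.18e-05, limma). *LNK2* differed by 1.87 ± 0.16 (adjusted p = 0.000121) and was also apart. In *LNK4* the 72 h array, at 7.66, was below the 108 h array, at 7.90, and in *LNK1* the sides overlapped as well, with differences of 1.99 ± 0.20 (adjusted p = 0.000299) and 0.76 ± 0.12 (adjusted p = 0.00517). When the 8 arrays were fitted as 2 groups of 4, without a mean for each time of day, the adjusted p was 0.0683 for *LNK4* and 0.224 for *LNK1*.

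The pseudo-response regulators went the other way. Of the 5 genes 4 were higher in early night, against 3.88% over all kept genes, and the median difference was -1.91. *PRR9*, which acts first in the sequence, was not called (0.53 ± 0.18, adjusted p = 0.107). *PRR3* had levels of 4.44, 3.50, 4.73 and 4.05 in the morning and 6.52, 6.79, 6.23 and 6.64 at night. The night arrays lay in a narrow band far above every morning array, and the difference was -2.36 ± 0.15 (adjusted p = 3.18e-05). *TOC1*, the last regulator of the sequence and a repressor of *CCA1* and *LHY*, had 5.04, 4.55, 5.30 and 5.25 against 6.95, 7.37, 6.55 and 7.25. Its sides were also apart, with both circadian time 16 arrays above both circadian time 12 arrays (difference, -1.99 ± 0.16, adjusted p = 9e-05). *PRR5*, a target of RVE8, had 4.07, 4.25, 4.37 and 4.65 against 6.57, 6.06, 6.28 and 6.07, again without overlap, a difference of -1.91 ± 0.14 (adjusted p = 5.9e-05). *PRR7* had 3.91, 5.18, 4.04 and 5.32 in the morning and 6.2, 4.77, 6.08 and 5.11 at night. Both circadian time 4 arrays lay above both circadian time 16 arrays, against the sign of the mean difference, while the circadian time 0 arrays lay about 2 units below those of circadian time 12, and the mean difference was -0.93 ± 0.11 (adjusted p = 0.000685). Fitted as 2 groups of 4 arrays it had an adjusted p of 0.174.

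All members of the evening complex that were kept were higher in early night, together with *GI* and *FKF1*, which form a blue-light complex that removes repressors of flowering. *FKF1* had 3.73, 3.74, 4.18 and 3.70 in the morning and 6.24, 6.06, 6.22 and 6.23 at night. Each side was tight apart from single arrays at 96 h and 88 h, and the difference of -2.36 ± 0.14 (adjusted p = 2.4e-05, limma) was the one of the oscillator genes with the smallest p. *LUX*, the DNA-binding subunit of the evening complex, had 5.0, 4.85, 5.53 and 4.93 against 6.94, 6.50, 6.86 and 6.61. Its morning arrays were all below its night arrays, as were those of *GI*, with 4.04, 3.96, 4.11 and 4.28 against 5.86, 5.32, 5.56 and 5.41. All morning arrays of *FKF1* and *GI* were under the limit of 4.5. *GI* was not among the genes kept when 8 arrays had to exceed 4.5. The differences were -1.65 ± 0.13 for *LUX* (adjusted p = 7.53e-05) and -1.44 ± 0.15 for *GI* (adjusted p = 0.000358). *ELF3* differed by -1.01 ± 0.14 (adjusted p = 0.00197), and *ELF4* (-0.93 ± 0.19, adjusted p = 0.0177) and *BOA*, a relative of *LUX* (-0.68 ± 0.15, adjusted p = 0.0188), lost their calls when single arrays were left out. The photoreceptor genes *ZTL* (-0.08 ± 0.13, adjusted p = 0.689) and *LKP2* (-0.11 ± 0.13, adjusted p = 0.613) were not called. Thus 6 of these 8 genes were called, all with the night higher, against 3.88% over all kept genes, and their median was -0.97.

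The B-box genes, which encode zinc finger proteins of light signalling and flowering, were mostly higher in the morning. Of 14 genes, 10 were higher in the morning, 2 were higher in early night, against 4.27% and 3.88% over all kept genes, and the median difference was 1.72. *COL2*, a relative of the flowering gene *CO*, had 8.82, 9.30, 8.62 and 9.18 in the morning and 5.88, 5.13, 6.59 and 5.06 at night. The gap between the sides was about 2 units, and the difference was 3.31 ± 0.15, or 9.93-fold (adjusted p = 1.01e-05, limma). *BBX18* (2.14 ± 0.10), *BBX32* (2.33 ± 0.13), *BBX25* (1.98 ± 0.13), *COL1* (1.77 ± 0.14) and *BBX19* (1.68 ± 0.15) were likewise apart, with adjusted p values between 1.12e-05 and 0.000132, and so were *BBX30* (2.21 ± 0.24) and *BBX31* (2.34 ± 0.21), which encode small proteins that bind CO. *BBX22*, an activator of the response to light, was higher at night (-1.04 ± 0.10, adjusted p = 0.00025). *BBX21*, of the same kind (-0.52 ± 0.13), *BBX28* (1.08 ± 0.20) and *BBX29* (0.66 ± 0.15) were called but not with every array left out.

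In the photoperiodic flowering pathway, *CDF1* and *CDF2*, which encode DOF repressors of *CO*, were higher in the morning, while *CDF3* was not called (0.38 ± 0.12, adjusted p = 0.0882). *CDF2* had 6.06, 6.79, 6.37 and 6.64 in the morning and 5.11, 5.02, 5.56 and 4.78 at night. Its sides did not overlap (difference, 1.35 ± 0.15, adjusted p = 0.000465, limma), nor did those of *CDF1* (1.16 ± 0.14, adjusted p = 0.000782). *FT*, the mobile signal for flowering, was near the limit of 4.5 at both times, with 4.83, 4.70, 4.83 and 4.14 against 3.84, 4.08, 4.00 and 3.78. The lowest morning array was just above the highest night array, and the call (0.70 ± 0.15, adjusted p = 0.0213) was lost with any 1 of 6 of the 8 arrays left out. *CO* itself differed by 0.38 (adjusted p = 0.194). Of 9 genes looked for, 6 were kept and 3 were called, all with the morning higher, against 4.27% over all kept genes. The median was 0.54. Of 12 kept genes of the phytochrome-interacting factors and shade growth, 2 were higher in the morning and 2 at night (median, -0.23). Over all kept genes these shares were 4.27% and 3.88%. The morning calls, *PIF5* (0.57 ± 0.14) and *PIF7* (0.46 ± 0.12), had overlapping sides and were lost when single arrays were left out. *IAA29*, an auxin response gene, had 3.83, 4.27, 4.05 and 4.11 against 6.44, 5.02, 6.15 and 5.56, with the night arrays above the morning arrays (-1.73 ± 0.19, adjusted p = 0.000589). Its morning arrays were all under 4.5, and it was not among the genes kept when 8 arrays had to exceed 4.5. *PIF4*, a growth-promoting factor, ran from 5.28 to 7.39 in the morning and from 6.63 to 8.04 at night, which overlap (-1.10 ± 0.20, adjusted p = 0.00783, and 0.195 without a mean for each time of day).

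**Figure D2:**
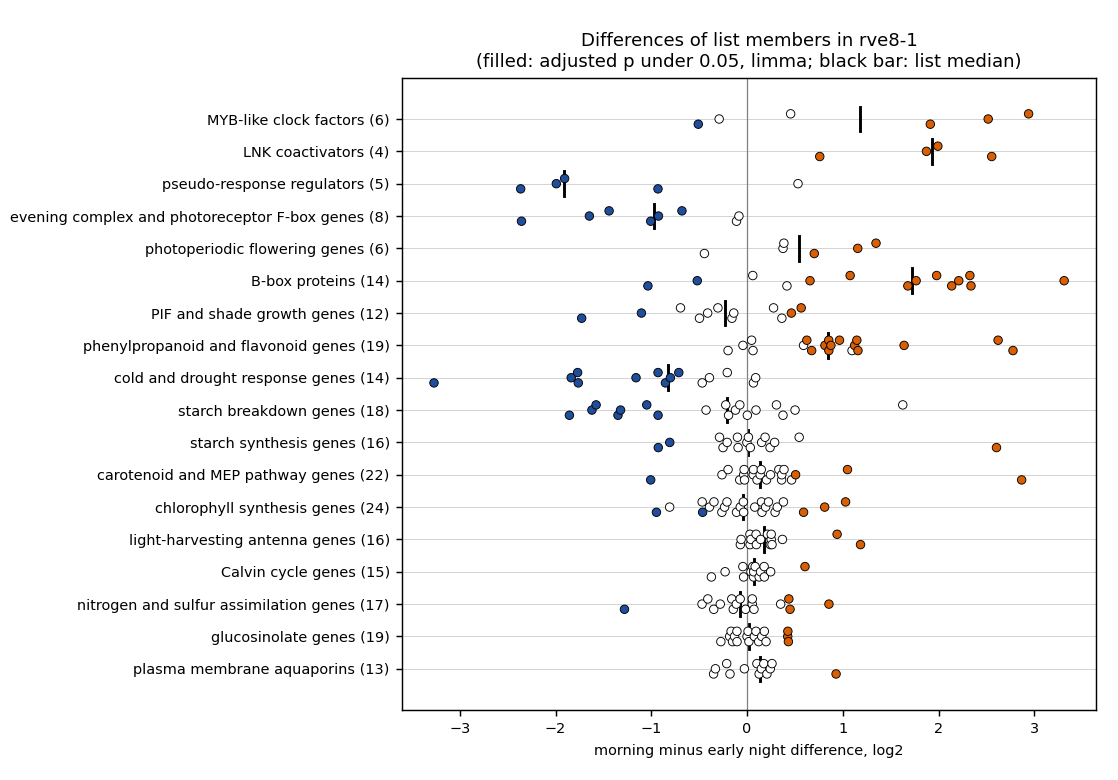
Morning minus early night differences in *rve8-1* (x axis, log2) of the kept members of 18 gene lists (y axis, number kept in brackets), 1 point per gene, filled orange or blue where called by limma at an adjusted p under 0.05 and open otherwise, with a bar at the list median. The medians run from -1.91 for the pseudo-response regulators to 1.93 for the *LNK* genes, and the open points of the photosynthesis lists gather around 0.

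Genes of phenylpropanoid and flavonoid synthesis were higher in the morning, from entry steps to the last steps of the pathway. Of 19 kept genes 13 were called, all with the morning higher, against 4.27% over all kept genes, and the median difference was 0.85. In Col the median of the same genes was -0.31 at the same harvest hours and 0.71 at hours 4 h earlier. *DFR*, which commits the pathway to anthocyanins, had 10.17, 9.58, 9.79 and 9.65 in the morning and 6.52, 8.18, 6.78 and 6.6 at night. The 88 h array was more than 1 unit above the other night arrays and still below every morning array, and the difference was 2.78 ± 0.32, or 6.86-fold (adjusted p = 0.000706, limma). *LDOX*, the next enzyme, had 8.53, 8.21, 8.24 and 7.93 against 5.19, 6.40, 5.59 and 5.25. Its 88 h array was likewise the highest of the night, and its difference was 2.62 ± 0.27 (adjusted p = 0.000319). Entry enzymes were called with smaller differences, among them *PAL2* (0.85 ± 0.16) and *C4H* (0.62 ± 0.11), and so were the enzymes of the common flavonoid steps *TT5*, a chalcone isomerase (0.85 ± 0.14), and *F3H* (1.15 ± 0.20), the flavonol synthase *FLS1* (0.81 ± 0.11), the glycosyltransferases *UGT78D1* (0.97 ± 0.11) and *UGT78D2* (1.16 ± 0.14), and the regulators *MYB75* (1.64 ± 0.29), which drives anthocyanin genes, and *MYB111* (0.88 ± 0.13), which drives flavonol genes. *MYB111* had 6.32, 5.54, 6.40 and 5.57 against 4.56, 5.44, 4.88 and 5.43, so that its circadian time 4 and 16 arrays were only about 0.1 apart, and without a mean for each time of day its adjusted p was 0.0669. *PAL1* (0.67 ± 0.18) and the chalcone synthase *TT4* (1.12 ± 0.24) were called but not with every array left out.

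Cold and drought response genes were higher in early night. Of 14 kept genes 9 were called, all with the night higher, and the sides were apart in each of the 9 (median over the 14, -0.83), where over all kept genes 3.88% were called and 8.39% were apart with the night higher. Among all genes called higher at night 86.3% were apart. *COR27*, a cold-induced gene that also acts in the clock, had 4.52, 4.62, 5.75 and 4.81 in the morning and 8.26, 8.11, 8.15 and 8.27 at night. The night arrays lay within 0.2 of each other and far above all morning arrays, of which 96 h was the highest, and the difference was -3.27 ± 0.24, or 9.65-fold (adjusted p = 6.38e-05, limma). *CBF3*, a transcription factor that switches on cold response genes, had 4.26, 4.49, 4.43 and 4.33 against 6.52, 5.75, 6.3 and 6.02, again without overlap (-1.77 ± 0.23, adjusted p = 0.00118). Its morning arrays were all under the limit of 4.5, and it was not among the genes kept when 8 arrays had to exceed 4.5. Several other cold response genes were higher at night as well, and any link to *CBF3* was not tested. *RD29A* differed by -1.76 ± 0.14 (adjusted p = 8.61e-05), *COR15B* by -1.84 ± 0.25 (adjusted p = 0.0016) and *COR15A* by -1.16 ± 0.21 (adjusted p = 0.00807), the latter pair encoding proteins that protect chloroplasts in the cold, and the dehydrin genes *COR47* and *ERD10* by -0.85 ± 0.12 and -0.80 ± 0.12 (adjusted p = 0.00211 and 0.0025). *COR413-PM1* (-0.93 ± 0.12) and *ERD7* (-0.71 ± 0.11) were the others called, and *CBF2*, of the same family as *CBF3*, was not (-0.47 ± 0.23, adjusted p = 0.227).

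Some starch breakdown genes were higher in early night. Of 18 breakdown genes 7 were higher in early night and 0 in the morning (median, -0.21), against 3.88% and 4.27% over all kept genes. In each of the 7 the sides were apart, and 2 uncalled members were apart with the morning higher. Over all kept genes 8.39% were apart with the night higher and 9.11% with the morning higher. Of all genes called higher at night 86.3% were apart. *AMY3*, a plastid alpha-amylase, had 5.25, 5.54, 5.20 and 5.61 in the morning and 7.11, 6.95, 6.99 and 7.04 at night. Each side was tight and the gap exceeded 1 unit, with a difference of -1.62 ± 0.09 (adjusted p = 1.67e-05, limma). *SEX1*, the dikinase that opens the granule surface for attack, differed by -1.32 ± 0.15 (adjusted p = 0.00063), and the debranching enzyme *ISA3* by -1.58 ± 0.17 (adjusted p = 0.000415). The disproportionating enzymes *DPE1* (-1.35 ± 0.12) and *DPE2* (-0.93 ± 0.13) and the glucan phosphorylases *PHS2* (-1.86 ± 0.14) and *PHS1* (-1.05 ± 0.15) completed the set. *BAM5*, a beta-amylase, had the largest positive value of the list at 1.63, with an SE of 0.80 (adjusted p = 0.227). Of 16 synthesis genes, *GBSS1*, the granule-bound starch synthase that makes amylose, was higher in the morning, with 9.35, 9.01, 8.95 and 9.18 against 6.46, 6.50, 7.09 and 6.02. The gap between its sides was almost 2 units (difference, 2.61 ± 0.19, adjusted p = 5.29e-05). *SS4*, which starts granules (-0.93 ± 0.14, adjusted p = 0.00304), and the branching enzyme *SBE2.1* (-0.81 ± 0.15, adjusted p = 0.00962, and 0.0555 without the 84 h array) were higher at night, and the list median was 0.01.

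**Figure D3:**
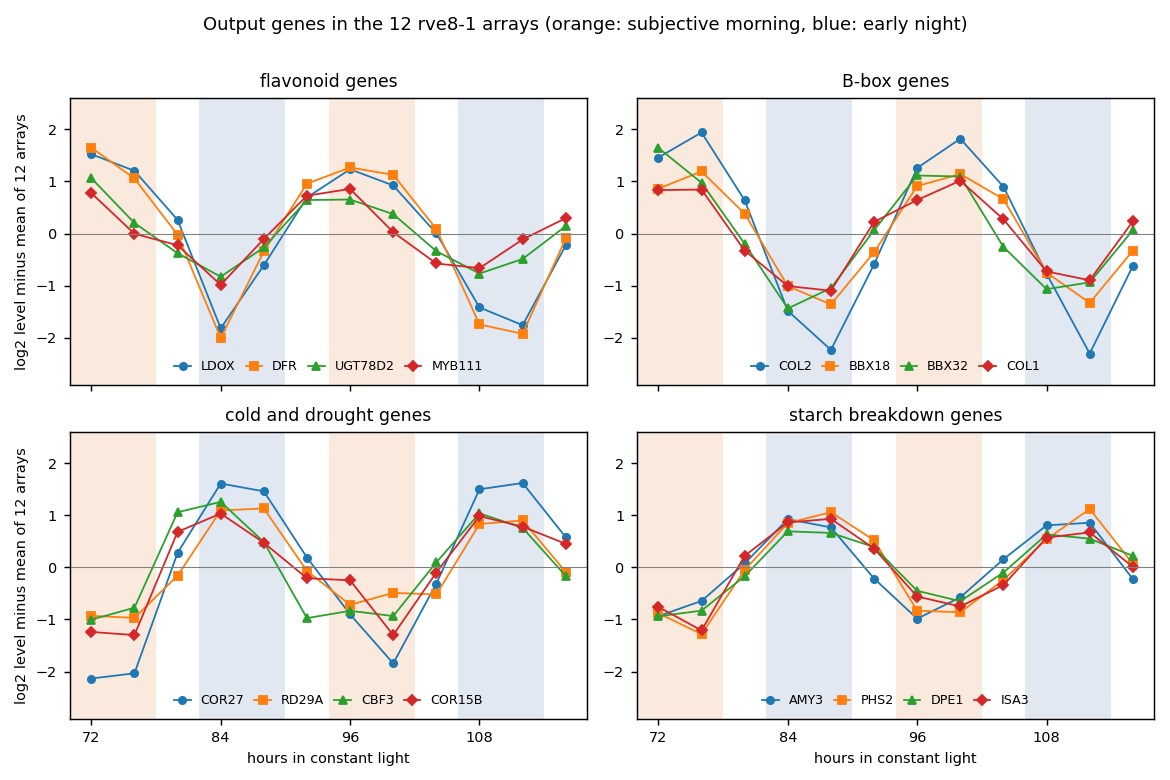
Log2 level minus the gene's mean over the 12 *rve8-1* arrays (y axis) against hours in constant light for 4 genes of each of 4 output groups, with morning harvests shaded orange and early night harvests blue. Flavonoid and B-box genes lie above their mean in the orange bands and cold, drought and starch breakdown genes above it in the blue bands, except that *MYB111* at 76 and 100 h is close to 0.

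The photosynthesis lists were called at shares of 12.5% (antenna), 6.67% (Calvin cycle) and 20.8% (chlorophyll), against 8.14% over all kept genes. Of 16 light-harvesting antenna genes 2 were higher in the morning (median, 0.18): *LHCB4.3* (1.18 ± 0.13, adjusted p = 0.000421, limma) and *LHCB2.3* (0.94 ± 0.12, adjusted p = 0.00112), the latter with overlapping sides and an adjusted p of 0.109 without a mean for each time of day. Of 15 Calvin cycle genes 1 was called, the aldolase gene *FBA1* (0.60 ± 0.12, adjusted p = 0.0122, and 0.0673 without the 84 h array), and the median was 0.07. Of 24 chlorophyll synthesis genes 3 were higher in the morning and 2 at night (median, -0.04). *PORB*, the light-dependent protochlorophyllide reductase, had 10.44, 10.20, 10.55 and 10.60 against 11.62, 11.06, 11.60 and 11.30, all night arrays being above all morning arrays (-0.95 ± 0.12, adjusted p = 0.000952), and *CH1*, which makes chlorophyll b, had 8.10, 8.32, 7.47 and 8.41 against 7.51, 6.50, 7.54 and 6.64, with the 96 h array inside the range of the night (1.03 ± 0.14, adjusted p = 0.0019, and 0.0522 without a mean for each time of day). The calls of *HEMA1*, *GUN4* and *HEMB1* were lost when single arrays were left out.

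Enzymes that run the xanthophyll cycle in opposite directions were higher at opposite times. *ABA1*, the epoxidase that turns zeaxanthin into violaxanthin, had 9.08, 9.07, 8.80 and 9.27 in the morning and 8.20, 7.62, 8.34 and 7.88 at night, and *NPQ1*, the de-epoxidase of the reverse reaction, had 6.92, 6.74, 7.09 and 7.16 against 8.03, 7.90, 7.77 and 8.23. Neither gene had overlapping sides, and the differences were 1.05 ± 0.14 (adjusted p = 0.00127, limma) and -1.01 ± 0.13 (adjusted p = 0.00139). *BETA-OHASE 2*, which supplies zeaxanthin, had 8.32, 8.61, 8.37 and 8.46 against 5.87, 4.79, 6.59 and 5.05. The morning arrays lay within 0.3 of each other, whereas the night arrays spread over almost 2 units (2.87 ± 0.17, adjusted p = 2.4e-05). In the whole list of 22 carotenoid and isoprenoid precursor genes, 3 were higher in the morning and 1 at night (median, 0.14). Over all kept genes these shares were 4.27% and 3.88%. *ISPH* was called at an adjusted p of 0.0273 (limma) and not with every array left out.

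Among other outputs were the 3 catalase genes, whose products remove hydrogen peroxide. Of these, 2 were higher at night, 0 were higher in the morning and 1 was not called. Over all kept genes 3.88% were higher at night. *CAT3* had 10.52, 10.17, 10.45 and 11.05 in the morning and 11.98, 11.88, 11.72 and 11.84 at night. All night arrays were higher (-1.31 ± 0.17, adjusted p = 0.00148, limma), as they were for *CAT1* (-1.16 ± 0.17, adjusted p = 0.00314), while *CAT2* differed by 0.44 (adjusted p = 0.194). *GRP7*, an RNA-binding protein that regulates its own transcript, had 11.40, 11.20, 11.69 and 11.50 against 12.91, 12.78, 12.76 and 12.81. The night arrays agreed within 0.2 and were all above the morning arrays (-1.37 ± 0.12, adjusted p = 0.00014). Of 17 nitrogen and sulfur assimilation genes 3 were higher in the morning and 1 at night (median, -0.07), against 4.27% and 3.88% over all kept genes. *APR2*, the main reductase of sulfate assimilation, differed by 0.86 ± 0.10 (adjusted p = 0.000787), whereas the calls of *APR1*, *APS3* and *ASN1* depended on single arrays. The glucosinolate genes (3 of 19 called, median 0.02) and aquaporins (1 of 13, *RD28*, 0.93 ± 0.17, adjusted p = 0.00888, median 0.13) were called at shares of 15.8% and 7.69%, against 8.14% over all kept genes, and the 3 glucosinolate calls, *SOT17*, *MYB29* and *FMO GS-OX1*, were each lost with single arrays left out.

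The 10 largest morning differences without overlap were those of At4g27360, *COL2*, *LHY*, *BETA-OHASE 2*, *DFR*, At2g27420, *ASG4*, At1g13650, At1g65870 and *LDOX*, from 3.57 down to 2.62 log2 units. At4g27360 had levels of 6.98, 7.31, 7.35 and 6.61 in the morning and 3.49, 3.22, 3.91 and 3.36 at night. No night array came near the limit of 4.5, and the difference was 3.57 ± 0.18, or 11.9-fold (adjusted p = 1.43e-05, limma). At1g13650 had the smallest adjusted p of these genes, with 8.30, 8.41, 8.38 and 8.48 against 5.81, 5.53, 6.11 and 5.40 (2.68 ± 0.11, adjusted p = 8.43e-06). The 10 largest night differences were those of At1g07050, At2g33830, At5g23240, *COR27*, At1g56300, *BT2*, *JMJD5*, *MEE14*, At4g33980 and At5g62360, from -4.36 to -2.39. At1g07050 had 4.08, 3.32, 6.22 and 3.70 against 8.63, 8.47, 8.65 and 8.99. Its 96 h array was more than 2 units above the other morning arrays but still far below the night, and the difference was -4.36 ± 0.39, or 20.5-fold (adjusted p = 0.000151). At2g33830, annotated as the dormancy-associated gene *DRM2*, had 4.75, 5.93, 6.84 and 6.36 against 10.53, 9.45, 10.31 and 10.34, an 18.2-fold difference (-4.19 ± 0.41, adjusted p = 0.000244). At5g23240, which encodes a DnaJ protein, differed by -3.83 ± 0.25 (adjusted p = 3.59e-05). *BT2*, a BTB and TAZ domain protein, differed by -2.57 ± 0.29 (adjusted p = 0.000624), and *JMJD5*, a Jumonji C domain protein that acts in the clock, by -2.53 ± 0.16 (adjusted p = 3.07e-05).

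**Figure D4:**
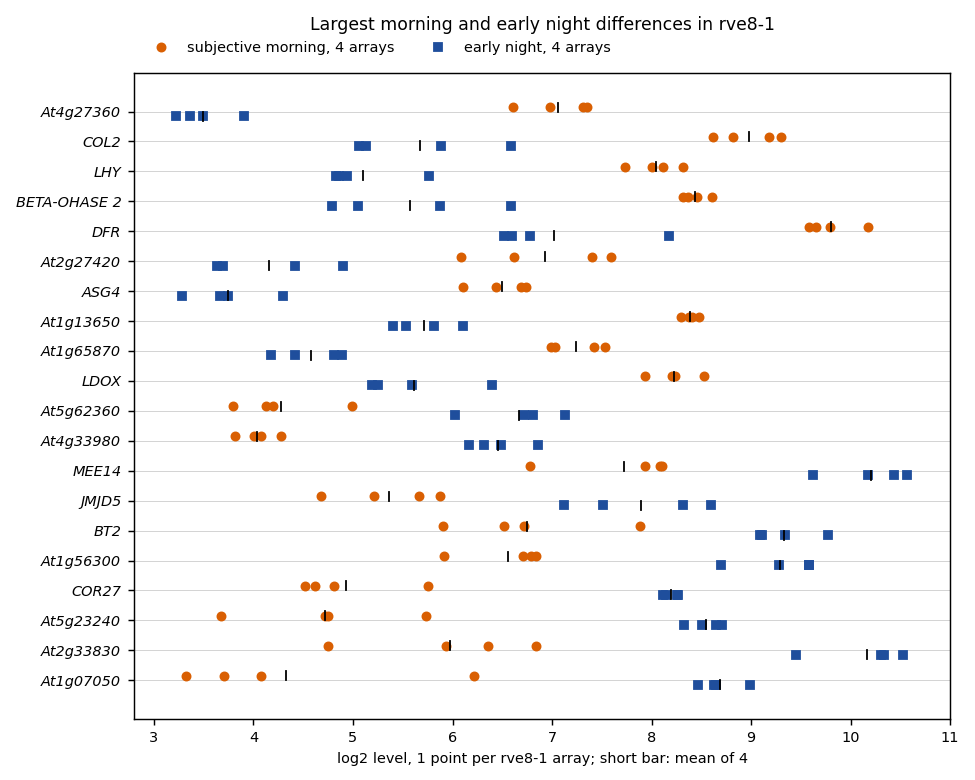
Log2 levels (x axis) of the 20 genes with the largest differences without overlap (y axis), with 1 orange circle per morning array, 1 blue square per early night array and a short bar at each mean of 4. In every row the orange and blue points are apart, and the sides are closest in At5g62360, where the 96 h array at 4.99 and the 88 h array at 6.03 face each other.

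The time at which the called genes were highest was read from the means of the 6 times of day, as a description, since the same arrays chose the genes. Of the morning genes 329 were highest at circadian time 0, 412 at circadian time 4, 61 at circadian time 8 and 10 at circadian time 20. Of the night genes 381 were highest at circadian time 12, 335 at circadian time 16, 19 at circadian time 20 and 2 at circadian time 8. Within the morning, 0 genes differed between circadian times 4 and 0 (limma, smallest adjusted p = 0.0555, 1162 genes at an unadjusted p under 0.05, and 0 to 5 called under the other settings tried). Within the night, 7 genes (0.0368%) differed between circadian times 16 and 12, all lower at 16, against 1189 at an unadjusted p under 0.05, but 0 were called with the day as a replicate block or without moderation of the variances. Among them were *LNK3* (-2.07 ± 0.23, adjusted p = 0.0448), *LNK4* (-2.19 ± 0.28, adjusted p = 0.0461), *PRR7* (-1.20 ± 0.15, adjusted p = 0.0461) and *LHCB2.3* (-1.35 ± 0.17, adjusted p = 0.0461). Without the 84, 88, 108 and 112 h array this comparison gave 1, 0, 0 and 6 calls.

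The harvests between the 2 sides, circadian times 8 and 20, were compared in the same fit to see on which flank each gene stood. At an adjusted p under 0.05, 286 genes (1.5%) were called, 104 (0.547%) higher at circadian time 20 and 182 (0.957%) at circadian time 8, and 103 genes, 36% of these 286 and 6.65% of the 1549, were called in both comparisons. Both comparisons share the variances of the same fit, so nothing is read from this overlap. All 4 *LNK* genes were higher at circadian time 8 than at 20, with *LNK4* at 8.85 and 8.80 against 4.99 and 5.5 (time 20 minus time 8, -3.58 ± 0.28, adjusted p = 0.000692, limma). *PRR7* had 6.04 and 6.11 against 3.52 and 3.65 (-2.50 ± 0.15, adjusted p = 0.000173), and *PRR9* (-2.04, adjusted p = 0.00635) and *PIF4* (-3.01, adjusted p = 0.00121) were likewise higher at circadian time 8. In the other direction *RVE2* had 7.08 and 6.85 at circadian time 8 and 9.05 and 9.17 at circadian time 20 (2.14 ± 0.23, adjusted p = 0.00281), and *JMJD5* (2.50, adjusted p = 0.0012), *PRR3* (1.28, adjusted p = 0.0243) and *LHCB4.3* (1.36, adjusted p = 0.0073) were also higher at 20. *PRR9* and *RVE2*, which were not called between morning and night, were thus called here, and 6 of the 16 antenna genes were higher at circadian time 8. The comparison rests on 4 arrays, and it gave 47, 113, 116 and 38 calls without the 80, 92, 104 and 116 h array.

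The morning to night difference of the mutant was set beside that of Col on separate arrays, with all 24 arrays in the fit. At the same harvest hours the difference itself differed between the genotypes for 1565 genes (8.23% of those tested), more positive in *rve8-1* for 982 (5.16%) and more negative for 583 (3.07%). Of the 812 morning genes of the mutant 428 (52.7%) were called, and of the 737 night genes 306 (41.5%), where the median differences in Col were 0.10 and -0.24. These shares rest on the mutant's own 8 arrays, which also chose the genes, so nothing is read from them against the 8.23%. In Col taken 4 h earlier, that is circadian times 20 and 0 against 8 and 12, the medians of the same genes were 0.52 and -0.54, and the test of the difference called 1 gene (0.00526%) with limma, against 1683 at an unadjusted p under 0.05 and a median SE of 0.17. The median size of the difference between the genotypes over the genes called in *rve8-1* was 0.54 at the same hours and 0.20 with Col taken 4 h earlier.

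Among the oscillator genes, *PRR7* had -0.93 in *rve8-1* and 1.89 in Col at the same hours, a difference of -2.82 (adjusted p = 1.41e-06, limma), and -0.48 in Col taken 4 h earlier. *GI* had -1.44 against 0.26 and -0.96, and *PRR5* had -1.91 against -0.33 and -1.66. *BBX32*, with a difference of 2.33 in *rve8-1*, had -0.35 in Col at the same hours, where the levels were on average higher at night, and 2.02 in Col taken 4 h earlier. *AMY3* (-1.62 against 0.05 and -1.43), At5g42760 (2.06 against -0.57 and 1.94) and At2g30600 (-1.17 against 0.50 and -0.92) were the remaining genes of the 5 with the smallest p at the same hours. By contrast *CCA1* (2.52 against 2.00, adjusted p = 0.343), *TOC1* (-1.99 against -1.69, adjusted p = 0.421) and *ELF3* (-1.01 against -1.12, adjusted p = 0.769) were not called between the genotypes at the same hours.

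**Figure D5:**
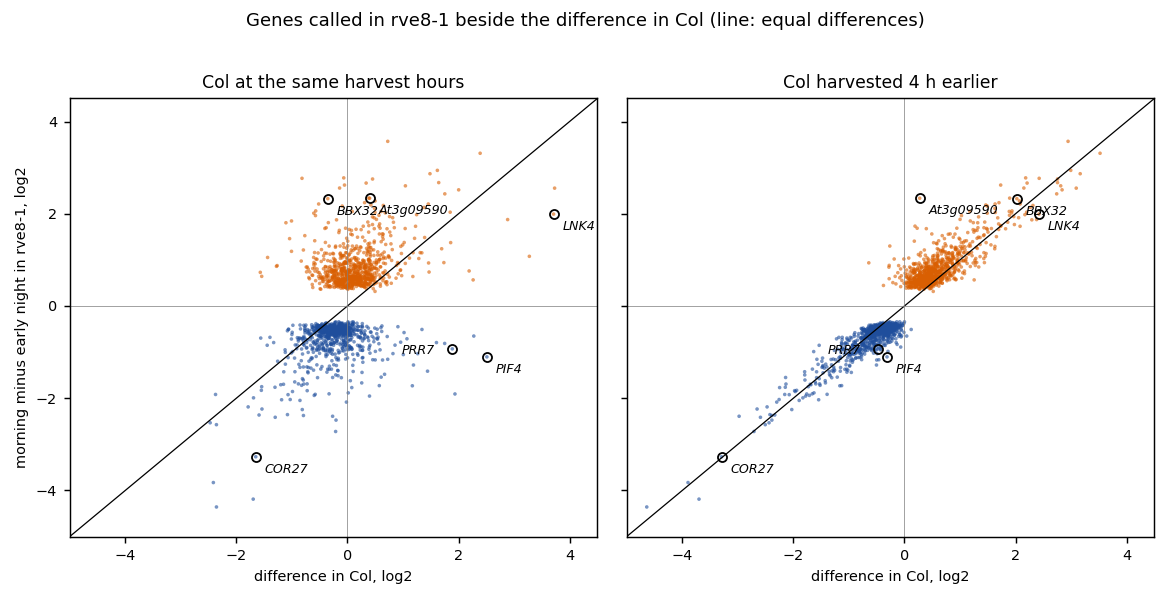
Morning minus early night difference in *rve8-1* (y axis, log2) against the difference in Col (x axis, log2) for the 1549 genes called in *rve8-1*, at the same harvest hours on the left and with Col harvested 4 h earlier on the right, with a line of equal differences. The points gather nearer to the line on the right, where At3g09590 stays apart at 0.27 in Col and 2.34 in *rve8-1*.

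The gene called with Col taken 4 h earlier was At3g09590, the nearest protein-coding neighbour of *RVE8* on one side. In *rve8-1* it had 5.79, 6.33, 6.52 and 5.92 in the morning and 3.83, 3.93, 3.52 and 3.92 at night. The sides were about 2 units apart, with every night array under 4.5 (2.34 ± 0.19, adjusted p = 8.07e-05, limma), whereas Col had a difference of 0.27 at the shifted hours and of 0.40 at the same hours. The difference between the genotypes was 2.06 ± 0.24 (adjusted p = 0.00506) and 1.94 ± 0.24 (adjusted p = 0.000134). All its night arrays in *rve8-1* were under the limit of the filter, it was not among the genes kept when 8 arrays had to exceed 4.5, and without moderation of the variances its adjusted p was 0.0786 at the shifted hours. At3g09580, the next protein-coding gene on that side, had -0.20 ± 0.11 in *rve8-1* (adjusted p = 0.275) and 0.04 in Col. At3g47180, At1g55170, At1g71060 and *MYB111* followed in the order of p with Col taken 4 h earlier, with adjusted p from 0.323 to 0.551, and were not called.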

How the data were processed

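Whole-seedling RNA was hybridized to AGRONOMICS1 arrays. Per the study's methods and labels, the authors masked poorly performing probes and then ran RMA (background correction, normalization and 1 summary per gene) in aroma.affymetrix with a TAIR9 gene set, which gave the deposited log2 levels. No further normalization was applied. Precision is limited by the number of arrays, and signal over background could be judged only from the summarized values. Of 30237 rows, 29715 matched a RefSeq locus tag (assembly TAIR10.1, used for names only). The table held 0 columns of other samples.

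limma 3.58.1 in R 4.3.3 was fitted to the 12 *rve8-1* arrays with 1 mean for each of 6 times of day (6 residual and 3.88 prior degrees of freedom), two-sided, with Benjamini-Hochberg adjustment over 19018 genes. Tests against Col used all 24 arrays (12 residual degrees of freedom). The fits were tested on simulated data. Correlations of the day 5 minus day 4 deviations between times of day had a median of -0.14 (range, -0.34 to 0.55, 4 of 15 over 0.1), so days were not a block. Named genes were the oscillator genes, up to 6 members of each list by smallest adjusted p, the 10 largest differences each way without overlap, the 5 smallest p in each test against Col, and the neighbours of *RVE8*. Of 307 list entries, 288 had 1 row. Another 6, among them *RVE3* and *COR28*, were not matched by name, so a row under another name would be missing from the list counts and medians. Other members were named after their values were seen. Members and lists were chosen with earlier results of these data known. Alternatives covered the filter, scaling, variance prior, threshold, day block, arrays fitted and each array left out. Figures were drawn with matplotlib 3.10.9.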

Additional observations from a re-analysis of the deposited data

Results flagged for a closer look

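Single arrays lay far from the other 3 of their side in 13 of the 292 sides of 4 arrays examined (4.45%). Chance gives about 1 in 20 for 4 replicates of the same condition, but each side here joins 2 times of day. The share is therefore not read against chance. On the night arrays these were *LHY* at 108 h (5.76), *FKF1* at 88 h (6.06), *DFR* at 88 h (8.18), *PSY*, the entry enzyme of carotenoid synthesis, at 112 h (9.48) and *MYB34* at 108 h (8.22). On the morning arrays they were *ELF3* at 76 h (4.69), *PHS2* at 76 h (5.83), At1g56300 at 72 h (5.91) and *MEE14* at 72 h (6.78), and at 96 h *FKF1* (4.18), *COR15B* (9.85), *LHCB2.1* (10.96) and *CP12-2* (11.38). The 96 h array gave 4 of these 13 values. *PSY*, *MYB34*, *LHCB2.1* and *CP12-2* were not called between morning and night.

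The difference between morning and early night itself differed between *rve8-1* and Col at the same hours for 1565 genes, and with Col taken 4 h earlier for 1 gene (limma, 24 arrays). Of the genes called at the same hours, the oscillator genes, the genes with the smallest p in either test and the neighbour of *RVE8* are given here as *rve8-1* minus Col, in log2 units. In all, 84 of the 145 named genes tested were called, against 8.23% over all kept genes. Many named genes were picked by size or p on the same arrays, so nothing is read from this share. *PIF4* (-3.61), At2g27420 (3.59), *DFR* (2.84) and At4g27360 (2.84) differed by more than any gene listed next. Among those more positive in the mutant were *LHY* (1.32), *RVE1* (1.1), *RVE2* (1.66), *BBX32* (2.68), *MYB111* (2.14), At5g42760 (2.63), At3g47180 (0.61), At1g55170 (0.45) and At3g09590 (1.94, and 2.06 with Col taken 4 h earlier). Among those more negative were *RVE7* (-1.85), *PRR9* (-1.11), *PRR7* (-2.82), *PRR5* (-1.57), *PRR3* (-0.77), *LUX* (-0.70), *GI* (-1.70), *FKF1* (-1.28), *LNK1* (-1.43), *LNK2* (-1.01), *LNK4* (-1.72), *AMY3* (-1.67) and At2g30600 (-1.67). With single arrays left out, the adjusted p of *LHY* (0.0953), At1g55170 (0.0524), *PRR9* (0.0767), *LUX* (0.0522), *LNK2* (0.109) and *PRR3* (0.065) reached these highest values.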

How the results depend on the processing

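With 2 arrays per time of day, counts of calls moved between settings. Of the 2635 settings computed for single genes, 0 turned a direction. Only genes called in the main fits were examined, on largely the same arrays, so nothing is read from this 0. The 1549 calls between morning and early night became 643 at an adjusted p under 0.01, 969 without the expression filter, 332 with at least 1 log2 unit required, 3738 with all 24 arrays, 3328 by non-overlap alone with no p, and 647 to 1334 with single arrays left out, while the other settings stayed within 1.5 times. Same-numbered days did not pair the arrays (4 of 15 correlations over 0.1). With the replicate block 1308 genes were called, 1269 of them among the 1549. Of 110 called genes among the lists and largest differences, 86 kept their call with each array left out and 76 under every alternative. The 1565 calls against Col at the same hours became 786 at an adjusted p under 0.01 and 1083 to 1555 with single arrays left out (1582 with the block). The 1 call with Col taken 4 h earlier became 0 with 8 arrays required above 4.5, where the gene was not tested, and 0 without moderation, and stayed 1 with each array left out and with the block.

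Between circadian times 20 and 8 the 286 calls became 64 at an adjusted p under 0.01, 82 without the filter, 59 without moderation, 169 with the replicate block and 38 to 116 with single arrays left out. Between circadian times 4 and 0, 0 calls became 5 with 8 arrays required, 2 after quantile normalization and 4 with a trended, robust prior. Between 16 and 12, 7 calls became 0 at an adjusted p under 0.01, without moderation and with the replicate block, 1 without the filter (none of the 7), 2 after median centring, 15 with the trended prior and 0 to 6 with single arrays left out. The causes were not tested. No background level came with the summarized values, so differences of genes low on one side may be understated.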

Other observations

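Of the 812 morning genes, 37 were higher at circadian time 8 than at 20 and 12 the reverse, and of the 737 night genes 29 and 25 were (limma, adjusted p under 0.05), against 0.957% and 0.547% over all kept genes. Both tests share the variances of the same fit, which also helped choose these genes. Nothing is therefore read from these counts against those shares. Relative to the mean of the 12 *rve8-1* arrays, the median level of the morning genes at circadian times 0, 4, 8, 12, 16 and 20 was 0.36, 0.38, 0.08, -0.34, -0.41 and -0.06, and that of the night genes was -0.38, -0.25, -0.05, 0.33, 0.33 and 0.05. Since the same arrays chose the genes, the values at circadian times 0, 4, 12 and 16 are a description only.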
